A study of Homo sapiens with 6 samples.

Results

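The CEACAM genes CEACAM1, CEACAM5, CEACAM6, CEACAM7 and CEACAM19 were taken by symbol from RNA-seq of BxPC-3 cells. They are 5 of the 26255 gene symbols measured, and 4 of the 5 reached a mean of 1 FPKM over the libraries, the level needed to enter the tests. FPKM, the unit the authors deposited, scales a gene's fragments to its exon length and to the size of the library, so levels can be compared between genes. BxPC-3 is an established line from a human pancreatic adenocarcinoma. Its 6 libraries form 3 groups of 2, which are untreated parent cells, cells given the negative control RNA labelled NC-1 (NC below) and cells given miR-4711-5p, the last 2 groups being taken 36 h after transfection. Parent cells were not transfected, so they differ from miR-4711-5p cells both in transfection and in the RNA, and NC is the control that shares the transfection. The labels do not say whether the 2 libraries of a group came from separate cultures, so the spread between them may be technical. The p-values rest on that spread, pooled over the 3 groups and drawn towards a trend over all tested genes. With bulk RNA from one culture, fewer cells expressing a gene and less of its RNA per cell cannot be told apart.

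CEACAM proteins are cell surface members of the immunoglobulin superfamily that bind each other within and between cells. CEACAM5 (carcinoembryonic antigen, CEA), CEACAM6 and CEACAM7 are held in the membrane by a glycosylphosphatidylinositol (GPI) lipid anchor, whereas CEACAM1 and CEACAM19 span the membrane. CEACAM5 is measured in blood as a tumour marker, and CEACAM5 and CEACAM6 are commonly high in pancreatic adenocarcinoma. CEACAM1 exists as splice forms with a long or a short cytoplasmic tail, and the long form carries inhibitory motifs that recruit the phosphatases SHP-1 and SHP-2.

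The transfected microRNA is shown first, because its seed (bases 2 to 8, in capitals) is the stretch that was searched for in the CEACAM transcripts. RefSeq places it on the minus strand of chr1:59733269-59733291 (GRCh38.p14).
miR-4711-5p: uGCAUCAGgccagaagacaugag
In GENCODE v44 transcripts on GRCh37 (hg19, the build of the files), no coding transcript of the 5 genes held a match to the whole seed (CTGATGC), with or without an A after it (CTGATGCA), or to its first 6 bases followed by an A (TGATGCA). Among 10568 tested genes matched to a canonical coding transcript, 17.1% held such a match in the 3′ UTR and 24.2% held one in the coding sequence. The shorter 6-base match TGATGC occurred once in a 3′ UTR of the family, in CEACAM6 at chr19:42275043-42275048, position 377 of the 1450 bases of that UTR. It is printed with its flanks, and the capitals mark the match.
CEACAM6: gcttggcaggaTGATGCtgtcattagta
A match of at least 6 bases was present in the 3′ UTR of 29.2% of the same genes. CEACAM19 held 2 such 6-base matches in its coding sequence, at chr19:45183599-45183604 and chr19:45184520-45184525. A match is a description of the letters and not evidence of a functional site.

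CEACAM6, a GPI-anchored adhesion protein of epithelial and myeloid cells that is linked to survival of detached tumour cells, was the most abundant member in every library. It measured 371 and 406 FPKM in the parent libraries, 386 and 432 FPKM in the NC libraries, and 210.4 and 232 FPKM in the miR-4711-5p libraries. Both miR-4711-5p libraries lay below all 4 control libraries, and the parent and NC libraries overlapped. The means were 389 ± 24.4, 409 ± 32.8 and 221 ± 15.1 FPKM (SD, n = 2), so that the miR-4711-5p level was 1.76-fold under the parent level and 1.85-fold under the NC level. In limma on log2(FPKM + 1), a scale that understates changes of low genes, the log2 fold change was -0.81 (SE 0.08, Benjamini-Hochberg adjusted p = 0.000207) against parent and -0.88 (SE 0.08, adjusted p = 0.000164) against NC. CEACAM6 thus fell in both comparisons, which share the miR-4711-5p libraries. NC and parent differed by 0.07 (95% interval -0.10 to 0.25, adjusted p = 0.502), which was within the spread between libraries.

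CEACAM5, the classical CEA, fell by the largest factor in the family. It measured 99.6 and 101 FPKM in parent cells, 82.9 and 105 FPKM with NC, and 38.9 and 45.4 FPKM with miR-4711-5p. The miR-4711-5p libraries were again below every control library, while the NC pair spanned the parent pair. Mean levels were 100.2 ± 0.775, 93.8 ± 15.5 and 42.2 ± 4.57 FPKM (SD, n = 2), which is 2.38-fold lower than parent and 2.23-fold lower than NC. The limma log2 fold change was -1.23 (SE 0.11, adjusted p = 0.000196) against parent and -1.13 (SE 0.11, adjusted p = 0.000333) against NC. Among the 12040 tested genes, CEACAM5 had the 86th lowest log2 fold change against parent and the 139th lowest against NC, and CEACAM6 had the 302nd and the 264th. For NC against parent, the difference of CEACAM5 was -0.10 (95% interval -0.37 to 0.16, adjusted p = 0.526).

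The balance of CEACAM5 and CEACAM6 is described by their ratio. The log2 ratio of CEACAM5 to CEACAM6 FPKM was -1.90 and -2.01 in parent cells, -2.22 and -2.04 with NC, and -2.43 and -2.35 with miR-4711-5p. The miR-4711-5p ratios were the lowest of the 6. The mean difference was -0.44 for miR-4711-5p against parent, -0.26 against NC and -0.18 for NC against parent. With 2 against 2 libraries an exact two-sided permutation test cannot give a p under 0.333, so these differences are a description and were not tested.

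**Figure D1:**
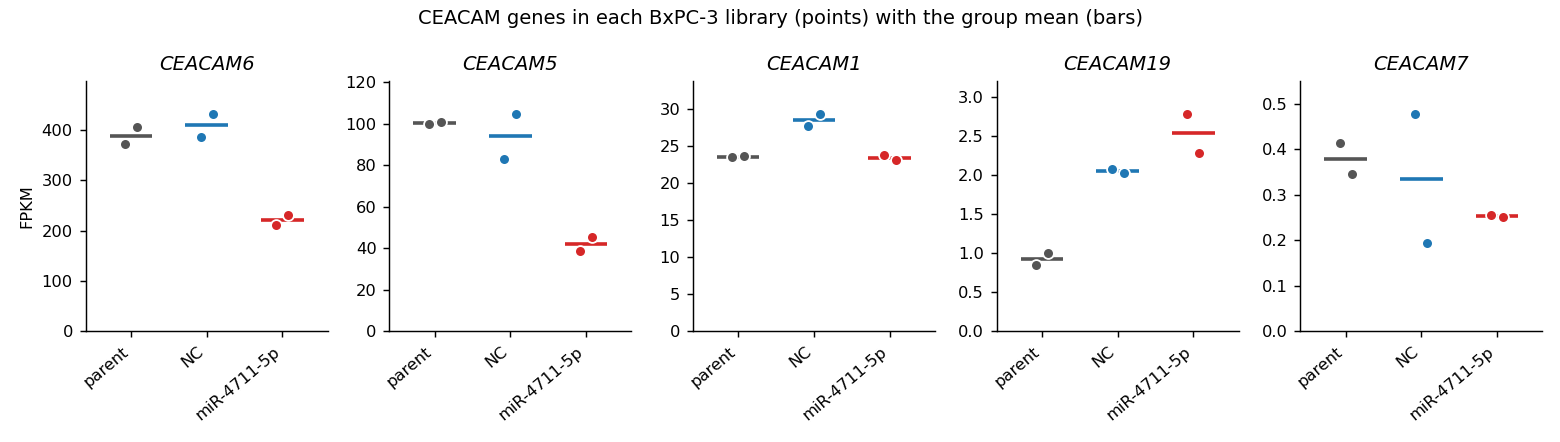
FPKM of each CEACAM gene (vertical axis, a separate linear scale from 0 for each gene) in the parent, NC and miR-4711-5p groups; points are the 2 libraries of a group and bars their mean. CEACAM6 and CEACAM5 are lower in both miR-4711-5p libraries than in all 4 others (CEACAM6 at 210.4 and 232 FPKM), CEACAM1 is highest with NC, CEACAM19 is lowest in parent cells, and CEACAM7 stays under 0.5 FPKM.

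CEACAM1, the transmembrane adhesion receptor with the inhibitory tail, had overlapping levels in parent and miR-4711-5p cells and was higher with NC. Its level was 23.6 and 23.6 FPKM in parent cells, 27.8 and 29.4 FPKM with NC, and 23.8 and 23.1 FPKM with miR-4711-5p. The NC libraries stood above the other 4, and the parent and miR-4711-5p libraries overlapped. The means were 23.6 ± 0.0465, 28.6 ± 1.16 and 23.4 ± 0.453 FPKM (SD, n = 2). The log2 fold change against parent was -0.01 (SE 0.05, 95% interval -0.13 to 0.11, limma adjusted p = 0.897). This narrow interval rests on the spread between these libraries, which may be technical, and may not cover the spread between separate cultures. Against NC, CEACAM1 was 1.22-fold lower with miR-4711-5p (log2 fold change -0.27, SE 0.05, adjusted p = 0.00498). NC itself was 1.21-fold above parent (0.26, SE 0.05, adjusted p = 0.0106), so the result for CEACAM1 depends on which control is used. The call for this rise was lost without parent library 1 (log2 fold change 0.26, adjusted p = 0.0543) and without NC library 2 (0.22, adjusted p = 0.0521), while the direction was kept. The FPKM are sums over splice forms, so the long and short tails were not separated.

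CEACAM19, a more distant transmembrane member, moved in the other direction and at a much lower level. It measured 0.853 and 1.01 FPKM in parent cells, 2.08 and 2.02 FPKM with NC, and 2.79 and 2.29 FPKM with miR-4711-5p. The 3 groups did not overlap and stood in the order parent, NC, miR-4711-5p. Means were 0.931 ± 0.111, 2.05 ± 0.0369 and 2.54 ± 0.352 FPKM (SD, n = 2), 2.73-fold higher with miR-4711-5p and 2.201-fold higher with NC than in parent cells. The limma log2 fold changes on log2(FPKM + 1) were 0.87 (SE 0.12, adjusted p = 0.00105) and 0.66 (SE 0.12, adjusted p = 0.00780), so CEACAM19 rose in both transfected groups. Between miR-4711-5p and NC the difference was 0.21 (SE 0.12, 95% interval -0.06 to 0.48, adjusted p = 0.187) and did not pass the test. It was 0.11 without miR-4711-5p library 1 and 0.31 without miR-4711-5p library 2. The parent mean was under 1 FPKM, so CEACAM19 entered the tests through the transfected libraries.

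PVR, the poliovirus receptor gene, lies on the same strand and shares 121 of the 5172 exon bases annotated for CEACAM19 (2.34%), none of them in the canonical CEACAM19 transcript. It measured 39.9 and 38.0 FPKM in parent cells, 37.05 and 38.5 FPKM with NC, and 52.1 and 52.2 FPKM with miR-4711-5p. PVR thus rose with miR-4711-5p (log2 fold change 0.41, limma adjusted p = 0.000589, against parent) and differed by -0.04 between NC and parent (adjusted p = 0.539), whereas CEACAM19 rose in both transfected groups. CEACAM19 amounted to 2.14% and 2.66% of the PVR level in parent cells, 5.60% and 5.26% with NC, and 5.36% and 4.39% with miR-4711-5p. How far PVR reads entered the CEACAM19 value was not tested.

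CEACAM7, a GPI-anchored member best known from colon epithelium, was near the lower end of detection. Its values were 0.414 and 0.345 FPKM in parent cells, 0.478 and 0.193 FPKM with NC, and 0.257 and 0.252 FPKM with miR-4711-5p. The miR-4711-5p libraries were below the parent libraries and within the NC range. Fitted without the filter, the log2 fold changes were -0.14 against parent (adjusted p = 0.423), -0.08 against NC (adjusted p = 0.646) and -0.05 for NC against parent (adjusted p = 0.804). No difference was detectable at this level, and the number of reads behind it is unknown.

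Read over the 4 tested members, limma called 1 higher and 2 lower with miR-4711-5p against parent, where it called 43.4% of all tested genes (18.7% higher, 24.7% lower). Against NC, 3 members were lower, where 39.6% of all genes were called (18.4% higher, 21.2% lower). For NC against parent, 2 members were higher, where 27.2% were called (12.1% higher, 15.1% lower). The shares of called genes are high, and with 4 tested members the counts are read as descriptions only. The median log2 fold changes of the members were -0.41, -0.58 and 0.17 in the same order, beside medians of -0.01, 0.00 and -0.01 over all tested genes.

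**Figure D2:**
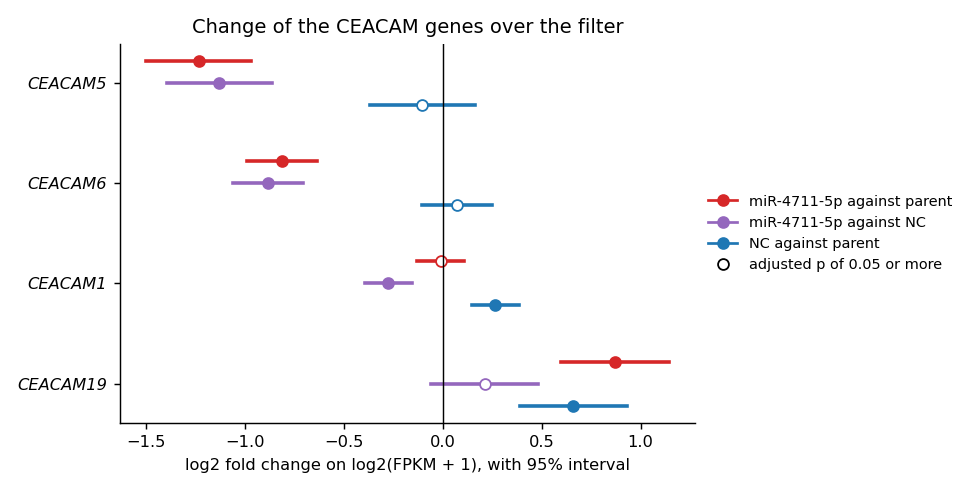
Log2 fold changes on log2(FPKM + 1) (horizontal axis) of the 4 CEACAM genes over the filter, with 95% intervals from limma for 3 comparisons; open points have an adjusted p of 0.05 or more. CEACAM5 (-1.23 and -1.13) and CEACAM6 (-0.81 and -0.88) lie left of 0 against both controls, CEACAM1 lies at -0.01 against parent, and CEACAM19 lies right of 0 against parent.

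**Figure D3:**
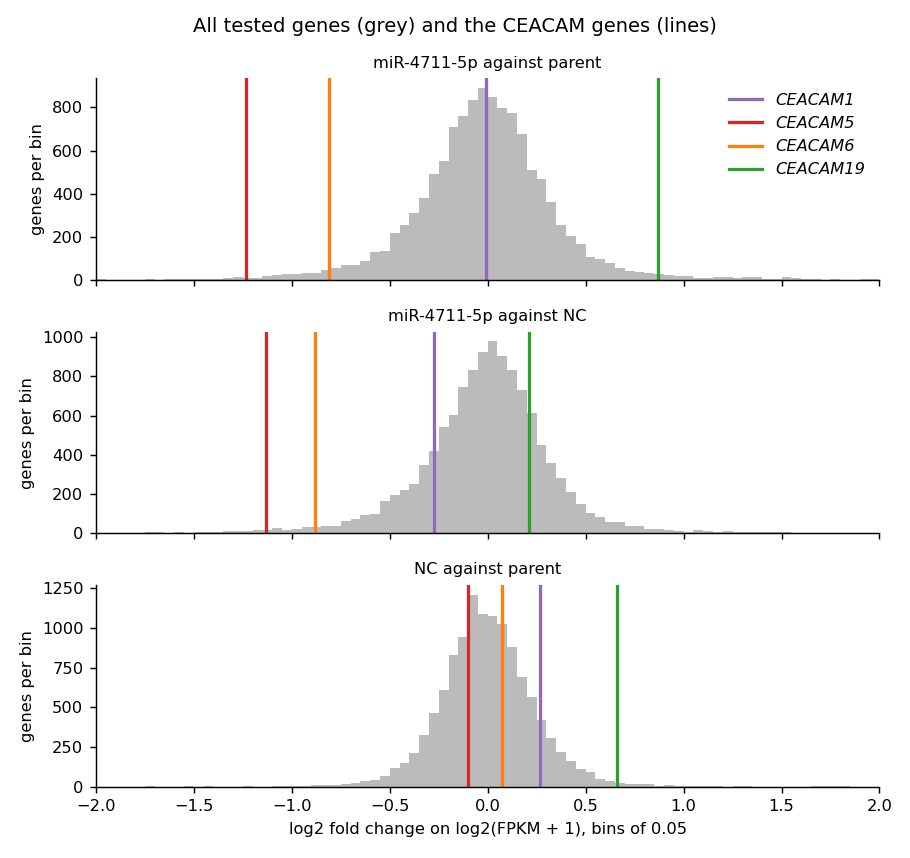
Histograms of the log2 fold changes of 12040 tested genes (grey, genes per bin of 0.05) with the 4 CEACAM genes as lines, for 3 comparisons. CEACAM5 and CEACAM6 lie in the left tail of both miR-4711-5p comparisons, and CEACAM19 lies in the right tail of the comparisons with parent, at 0.87 and 0.66.

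The order of levels, CEACAM6, CEACAM5, CEACAM1, CEACAM19 and CEACAM7, was the same in all 6 libraries, and within each group no neighbours in it overlapped. In parent cells CEACAM6 was the 205th and CEACAM5 the 869th most abundant of all gene symbols, and with miR-4711-5p they were the 305th and the 2085th. Summed over the 5 genes, the level was 496 and 532 FPKM in parent cells, 499 and 569 FPKM with NC, and 276 and 303 FPKM with miR-4711-5p. The sum was thus 1.77-fold lower in the miR-4711-5p group than in the parent group, and both of its libraries were below all others. CEACAM6 supplied 75.6% ± 1.03 (SD, n = 2) of this sum in parent cells, 76.7% ± 0.924 with NC and 76.4% ± 0.240 with miR-4711-5p, so its share stayed in a narrow range while its level fell. The share of CEACAM5 was 19.5% ± 0.810, 17.5% ± 1.29 and 14.5% ± 0.632. For CEACAM1 the share was 4.60% ± 0.217, 5.37% ± 0.279 and 8.12% ± 0.686, the highest being with miR-4711-5p, where CEACAM1 itself was at its parent level.

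The members are similar in sequence, which bears on how reads can be assigned. All windows of 75 bases in the canonical transcripts were compared with the other family transcripts. Windows within 2 mismatches of any such transcript made up 10.9% of CEACAM5 (375 of 3427), 16.03% of CEACAM6 (404 of 2520) and 9.75% of CEACAM1 (333 of 3417). The single gene sharing most windows was CEACAM6 for CEACAM5 (216 windows) and for CEACAM1 (189), and CEACAM5 for CEACAM6 (201). Identical windows numbered 4 in CEACAM5, 4 in CEACAM6 and 44 in CEACAM1. CEACAM7 and CEACAM19 had no shared window by this measure. CEACAM1 also overlaps the antisense gene LIPE-AS1, which was between 0.441 and 0.820 FPKM, over 185 exon bases. The strand setting of the authors' counting is not given in the sources used here. CEACAM5 and CEACAM6 share 139 and 138 exon bases with an annotated read-through gene, ENSG00000267881, which is not listed under that name among the symbols measured.

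All 5 genes lie on chromosome 19. CEACAM7 (chr19:42177231-42210895, minus strand), CEACAM5 (chr19:42212504-42234353, plus) and CEACAM6 (chr19:42254885-42276116, plus) are neighbours, with 20.5 kb between CEACAM5 and CEACAM6. CEACAM1 (chr19:43011456-43065386, minus) and CEACAM19 (chr19:45165545-45187631, plus) lie farther along, all in hg19. Nearest tested neighbours that do not overlap a member are given with their gap, for miR-4711-5p against parent. RPS19, a ribosomal protein gene 88.2 kb from CEACAM6, differed by -0.03 (adjusted p = 0.597). BCKDHA, an enzyme subunit gene of branched-chain amino acid breakdown, lay 246 kb from CEACAM7 on the other side and fell by 0.18 (adjusted p = 0.0363). It also differed by -0.18 for NC against parent (limma adjusted p = 0.0503), and by 0.002 for miR-4711-5p against NC (adjusted p = 0.985). Around CEACAM1, CXCL17, a mucosal chemokine at 64.4 kb, differed by -0.16 (adjusted p = 0.383). CD177, a neutrophil surface protein at 792 kb, differed by -0.08 (adjusted p = 0.651). Around CEACAM19, the zinc finger gene ZNF180 at 161 kb differed by 0.14 (adjusted p = 0.223). BCL3, an NF-kappaB co-regulator at 63.3 kb, rose by 0.24 (adjusted p = 0.0145), while its difference against NC was 0.12 (limma adjusted p = 0.143). PVR, which overlaps CEACAM19 and was described above, rose by 0.41 (limma adjusted p = 0.000589).

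Over chr19:42077231-45287631, which holds the family with 100 kb on each side and was drawn after the values were seen, 47 other genes were tested. With miR-4711-5p against parent, 14 of them were higher and 6 lower (42.6% called), with a median log2 fold change of 0.13. Against NC, 11 were higher and 4 lower (31.9%), and for NC against parent 2 were higher and 6 lower (17.0%). Taken in either direction, these shares were at or below those over all tested genes. Against parent and against NC, more of the 47 genes were higher than lower. Over all tested genes 18.7% were higher and 24.7% lower against parent (median -0.01), and 18.4% higher and 21.2% lower against NC. KCNN4, a calcium-activated potassium channel, was lowest against parent at -1.05, and PLAUR, the GPI-anchored urokinase receptor, was highest at 0.69. Among the 47 genes, none was therefore as low as CEACAM5 or as high as CEACAM19 in that comparison, but KCNN4 was lower than CEACAM6 at -0.81. For NC against parent, LYPD3 was highest at 0.97, above CEACAM19 at 0.66.

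**Figure D4:**
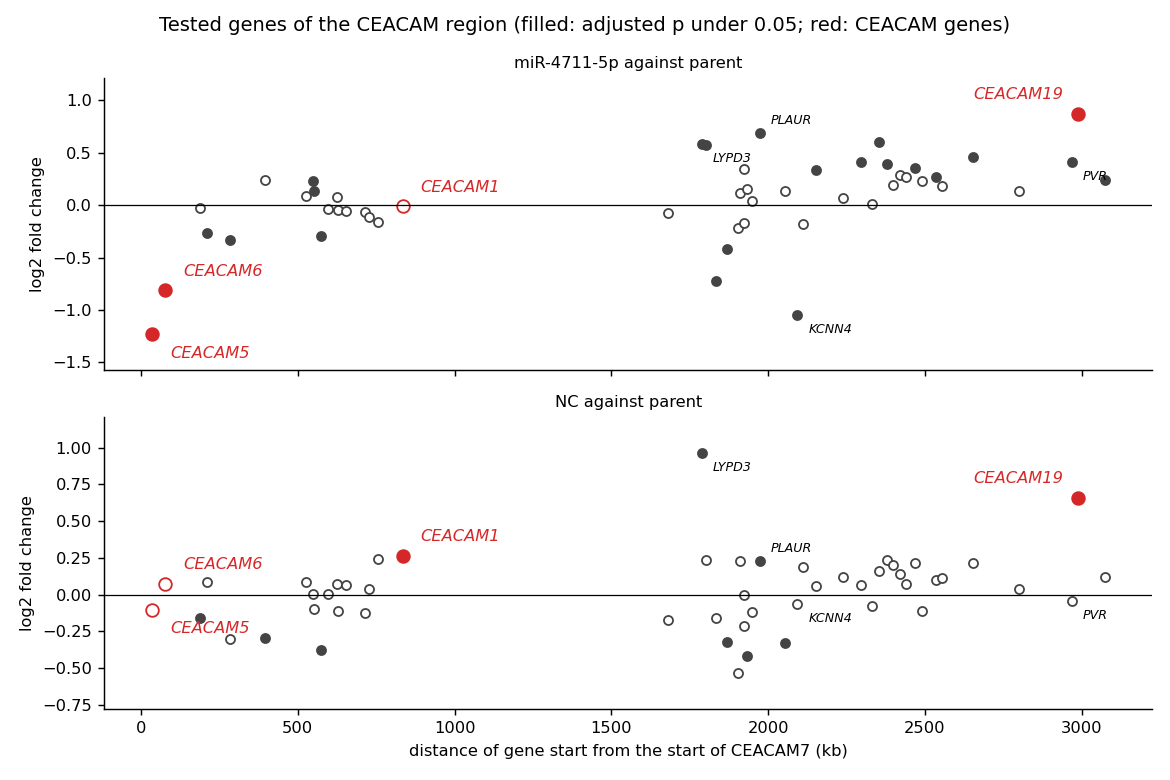
Log2 fold change (vertical axis) of each tested gene of the CEACAM region against the distance of its start from the start of CEACAM7 in kb, for miR-4711-5p against parent and for NC against parent; filled points have an adjusted p under 0.05 and CEACAM genes are red. Next to CEACAM5 and CEACAM6, at -1.23 and -0.81, the neighbouring genes lie nearer to 0. CEACAM19 is high in both panels, and LYPD3, at 0.97, is higher for NC against parent.

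The promoters of the 4 members in RefSeq (CEACAM1, CEACAM5, CEACAM6 and CEACAM7, GRCh38.p14) were read because a pair of them fell together. The 70 bases before each start are shown, with the E-box CACGTG, a motif bound by USF factors, in capitals.
CEACAM5, chr19:41708556-41708625, plus strand: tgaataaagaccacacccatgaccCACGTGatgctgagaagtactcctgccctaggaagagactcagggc
CEACAM6, chr19:41755460-41755529, plus strand: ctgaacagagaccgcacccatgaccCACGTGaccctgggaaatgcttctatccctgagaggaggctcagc
CEACAM7, chr19:41688271-41688340, minus strand: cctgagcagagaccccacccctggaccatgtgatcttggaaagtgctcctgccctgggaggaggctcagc
CEACAM1, chr19:42528482-42528551, minus strand: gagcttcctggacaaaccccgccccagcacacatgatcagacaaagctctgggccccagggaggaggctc
CACGTG, which reads the same on both strands, began at -46 in CEACAM5 and at -45 in CEACAM6, and was absent from the windows of CEACAM7 and CEACAM1. It was present in 7.26% of 35116 promoter windows of 300 bases. The GC box GGGCGG, searched on both strands, was found in CEACAM6 and CEACAM1 and in 45.0% of all windows. CCNCNCCC, a form of the motif of KLF and SP factors that can overlap the GC box, was found in all 4 and in 56.2% of all windows. The core of the interferon-stimulated response element (GAAA, any 2 bases and GAAA) was found in CEACAM1 and in 3.57% of all windows. Over the 250 bases before the start, CEACAM5 was 73.6% identical to CEACAM6 and 80.5% identical to CEACAM7, and CEACAM1 was 64.4% identical to CEACAM5. Whether the E-box or any other motif bears on the levels was not tested, and CEACAM7 was under the level needed for the tests.

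Factors with known links to CEACAM promoters were described from a list of 18, of which 14 were tested. With miR-4711-5p against parent 5 were higher and 4 lower, with a median log2 fold change of 0.03, beside 43.4% called over all genes. SOX9, a factor of ductal cells, rose from 6.48 ± 0.121 FPKM in parent cells to 14.2 ± 1.58 FPKM with miR-4711-5p (SD, n = 2; log2 fold change 1.01, limma adjusted p = 9.4e-05). KLF5, an epithelial factor that the study names as a target of the microRNA, fell from 119 ± 7.14 to 63.0 ± 5.34 FPKM (-0.91, adjusted p = 8.46e-05). Its relative KLF4 rose by 0.54 (adjusted p = 0.000854), and IRF1, an interferon regulatory factor, differed by 0.08 (adjusted p = 0.27). SMAD4, the TGF-beta mediator that BxPC-3 cells are known to lack, was listed at 0 in all 6 libraries. For the E-box factors, picked after their values were seen, USF1 rose by 0.37 (adjusted p = 0.00565) and USF2 fell by 0.29 (adjusted p = 0.00374). Their part in the CEACAM values was not tested. Against NC, 5 of the 14 were higher and 5 lower (39.6% called over all genes), and for NC against parent 4 were higher (27.2%).

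Surface proteins known to bind CEACAM5 or CEACAM6 were listed as 7 genes, of which 5 were tested. For miR-4711-5p against parent 2 were higher and 2 lower, where 43.4% of all tested genes were called. Against NC 3 were lower (39.6% called over all genes), and for NC against parent 4 were higher (27.2% called over all genes). ITGA5, the alpha chain of the fibronectin receptor, was 43.9 ± 2.04 FPKM (SD, n = 2) in parent cells, 83.5 ± 2.41 FPKM with NC and 23.7 ± 0.317 FPKM with miR-4711-5p. It thus rose with NC (log2 fold change 0.91, limma adjusted p = 0.000277) and fell with miR-4711-5p (-0.86, adjusted p = 2.69e-05, against parent). Its partner ITGB1 did the same to a lesser extent, at 0.21 (adjusted p = 0.0125) and -0.45 (adjusted p = 0.000231). ITGAV, another integrin alpha chain, rose by 0.49 and the TRAIL receptor TNFRSF10B by 0.59 with miR-4711-5p against parent (adjusted p = 0.000539 and 0.000113). With NC they rose by 0.43 and 0.49 (adjusted p = 0.00297 and 0.00127), as CEACAM19 did in both transfected groups.

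Signalling and splicing partners of CEACAM1 were listed as 13 genes, of which 11 were tested. With miR-4711-5p against parent 2 were higher and 4 lower (median -0.06), against NC 1 was higher and 4 lower, and with NC against parent 1 was higher and 1 lower, beside 43.4%, 39.6% and 27.2% called over all tested genes. PTPN6, which encodes SHP-1, was 20.0 ± 2.63 FPKM in parent cells and 18.98 ± 0.460 FPKM with miR-4711-5p, a difference of -0.06 (limma adjusted p = 0.573). TLR2, a receptor for bacterial lipopeptides, rose by 0.42 against parent (adjusted p = 0.00252). With NC it rose by 0.33 (adjusted p = 0.0139), and miR-4711-5p and NC differed by 0.09 (adjusted p = 0.306). Against parent, the tyrosine kinase SRC fell by 0.31 (adjusted p = 0.00304), the actin cross-linker FLNA by 0.22 (adjusted p = 0.0211) and the splicing factor HNRNPA1 by 0.26 (adjusted p = 0.00209). Measured against NC, these 3 genes differed by -0.29, -0.30 and -0.26 (adjusted p = 0.00412, 0.0069 and 0.00247).

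CEACAM5, CEACAM6 and CEACAM7 need the GPI anchor to reach the surface. Of 30 genes of anchor synthesis and remodelling, 28 were tested, and with miR-4711-5p against parent 4 were higher and 5 lower (median 0.01). Against NC 5 were higher and 4 lower, and with NC against parent 3 were higher and 6 lower, where the shares called over all tested genes were 43.4%, 39.6% and 27.2% in that order. The transamidase subunits PIGT and GPAA1, which attach the anchor to proteins, fell by 0.38 (limma adjusted p = 0.00153) and 0.33 (adjusted p = 0.00396) against parent. Of the early enzymes, PIGL rose by 0.33 (adjusted p = 0.0181) and PIGC differed by 0.32 (adjusted p = 0.0635).

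Other GPI-anchored surface proteins were listed as 27 genes, of which 22 were tested. With miR-4711-5p against parent 6 were higher and 9 lower (median -0.05), against NC 4 were higher and 10 lower, and with NC against parent 5 were higher and 5 lower. Over all tested genes 43.4%, 39.6% and 27.2% were called in these comparisons. LY6D, a marker of keratinocyte differentiation, was 88.4 ± 1.30 FPKM in parent cells, 70.1 ± 8.77 FPKM with NC and 21.8 ± 1.89 FPKM with miR-4711-5p (SD, n = 2; -1.97, adjusted p = 9.67e-06, against parent). Mesothelin (MSLN), a surface antigen of pancreatic cancer, fell from 11.3 ± 1.58 to 3.72 ± 0.0570 FPKM (-1.38, adjusted p = 4.43e-05), and CD109, a TGF-beta co-receptor, fell by 0.72 (adjusted p = 4.41e-05). BST2 (tetherin), an interferon-induced antiviral protein, rose from 168 ± 11.5 to 274 ± 9.52 FPKM (0.70, adjusted p = 0.000113). The fall of CEACAM5 was thus between those of CD109 and MSLN on this scale.

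**Figure D5:**
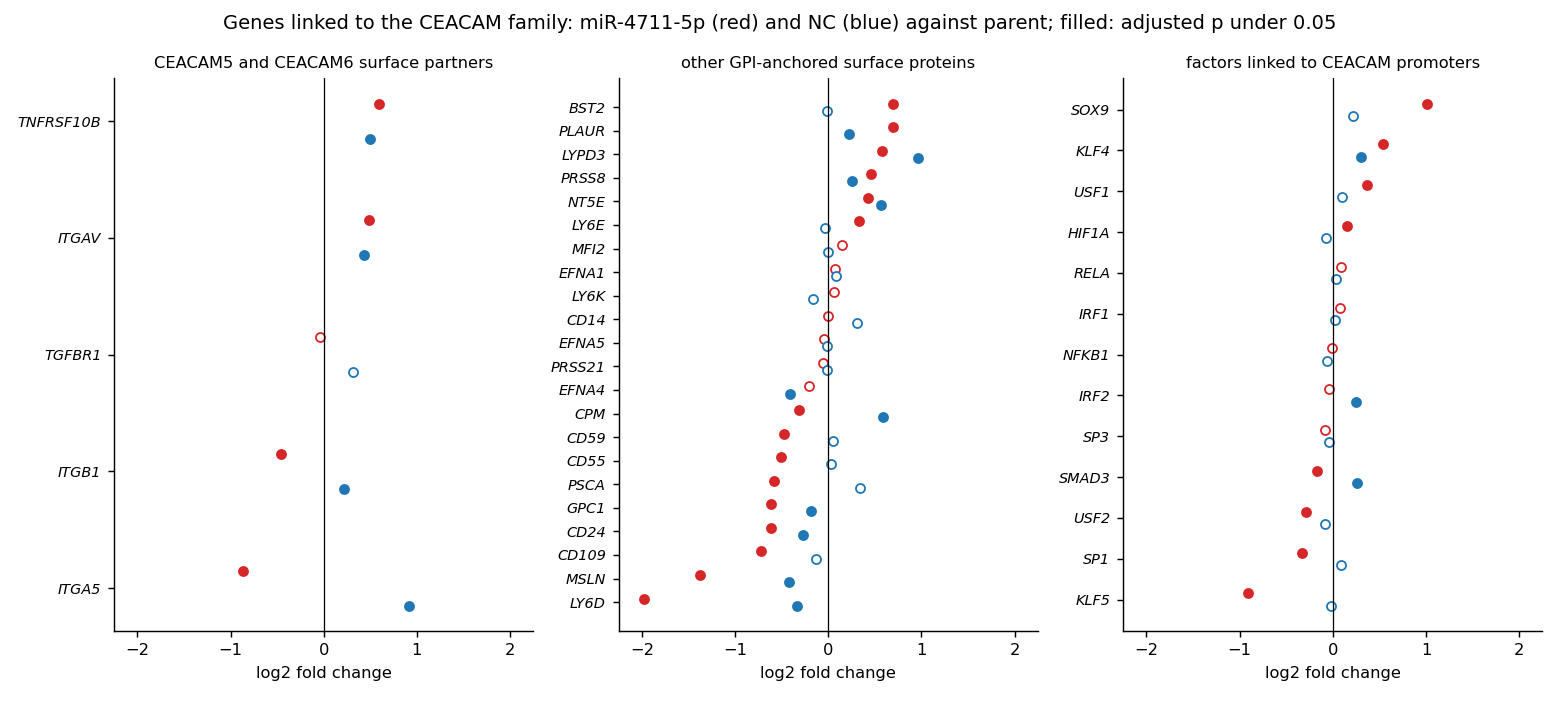
Log2 fold changes (horizontal axis) of tested surface partners of CEACAM5 and CEACAM6, of other GPI-anchored surface proteins and of 13 of the 14 tested factors linked to CEACAM promoters, for miR-4711-5p (red) and NC (blue) against parent; filled points have an adjusted p under 0.05. Each list holds genes on both sides of 0, from LY6D at -1.97 and MSLN at -1.38 to SOX9 at 1.01, and ITGA5 lies on opposite sides with NC and miR-4711-5p.

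The genes whose pattern over the 6 libraries was nearest to a member's were found from the distance between their log2(FPKM + 1) values, each taken from its parent mean. For CEACAM5 they were RARG (a retinoic acid receptor, distance 0.219), FBXO7 (0.244), TFDP1 (the E2F partner DP1, 0.265) and GM2A (a lysosomal activator, 0.271). For CEACAM6 they were RAB38 (a small GTPase, 0.137), GPX2 (a glutathione peroxidase, 0.145), POLM (a DNA polymerase, 0.152) and SERPINB4 (a serine protease inhibitor, 0.155). CEACAM6 was 170th in the order of CEACAM5 and CEACAM5 was 896th in that of CEACAM6, at a distance of 0.665, so neither was among the nearest genes of the other. CEACAM1 lay nearest to RIT1 (0.0681), UBR1 (0.0744), CLCN3 (0.0766) and CNOT6 (0.0782), all higher with NC. CEACAM19 lay nearest to the nuclear RNA MALAT1 (0.136), KLF6 (0.158), the interferon-induced GBP4 (0.188) and STRADB (0.205). The 6 libraries are 3 pairs, so these distances mostly compare 3 group means.

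All 7 epithelial markers were expressed in every library, at a summed level of 5983 to 6367 FPKM in parent cells, 5387 to 5673 FPKM with NC and 5384 to 5439 FPKM with miR-4711-5p. With miR-4711-5p against parent 2 rose and 2 fell, where 43.4% of all tested genes were called. Against NC, limma called all 7 (4 up, 3 down), beside 39.6% of all tested genes. Between NC and parent it called 3 (1 up, 2 down), beside 27.2%. From parent to miR-4711-5p cells, CDH1 (E-cadherin) fell from 115 ± 1.67 to 29.6 ± 1.81 FPKM (log2 fold change -1.93, limma adjusted p = 2.81e-06). KRT19 fell from 1629 ± 99.5 to 901 ± 15.2 FPKM (-0.85, adjusted p = 2.58e-05). The claudin CLDN4 rose from 115 ± 6.90 to 190.4 ± 1.72 FPKM (adjusted p = 5.04e-05). Measured against NC, the log2 fold changes were -1.85 for CDH1, -0.50 for KRT19 and 0.45 for CLDN4. Markers of granulocytes, which also express CEACAM6 and CEACAM1, were listed at 0 in all libraries for 7 of 8 genes, MPO, ELANE and CEACAM8 among them, and the eighth, CEACAM3, reached 0.0653 FPKM in 1 library. Of 7 other leukocyte markers only CD14 was tested and it passed in no comparison, and the summed level was 1.85 to 2.95 FPKM over the 6 libraries, with TYROBP at 0 in each. Of 8 fibroblast and endothelial markers 2 were tested, with a summed level of 2.62 to 3.16 FPKM in parent cells, 5.32 to 5.95 FPKM with NC and 2.43 to 2.52 FPKM with miR-4711-5p. Only 4 of these 8 genes exceeded 0.1 FPKM in any library. The summed level was highest with NC, as CEACAM1 was. Within the list, CDH5 (VE-cadherin) was at 0.962 ± 0.0467, 3.02 ± 0.202 and 0.541 ± 0.101 FPKM in the parent, NC and miR-4711-5p groups. Any part of such cells in the CEACAM1 value was not tested.

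The depth of the libraries in reads is unknown. The steps between low values gave a depth relative to parent library 1 of 0.873 for parent library 2, 0.751 and 0.857 for NC, and 1.08 and 1.21 for miR-4711-5p, and each library listed 16597 to 17305 genes above 0. Of the low genes used, 29.0% to 36.8% lay on the most common step ratio in the other 5 libraries, so these depths are rough. The part of depth in the values of the low members CEACAM7 and CEACAM19 was not tested.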

How the data were processed

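The authors sequenced stranded mRNA libraries (TruSeq, single-end HiSeq) and deposited FPKM for 26255 gene symbols per library. The submitters' notes name TopHat2 2.1.1, Bowtie2 2.3.5.1, SAMtools 1.2, Cufflinks 2.2.1 and hg19. The paper's methods name Cuffnorm and earlier versions of the aligners. The annotation, strand and normalization options are not given in the sources used here.

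Since FPKM hold no counts, count models were left out. The 12040 genes whose mean FPKM over 6 libraries was 1 or more were fitted on log2(FPKM + 1) with limma 3.58.1 in R 4.3.3 (trended eBayes after lmFit and contrasts.fit) in 1 fit of 3 groups, two-sided, with Benjamini-Hochberg adjustment over all tested genes at 0.05. The residual degrees of freedom were 3 and the prior degrees of freedom 4.15. On simulated data (10 runs of 12040 genes with 200 of them changed, miR-4711-5p against parent) 83% of log2 changes of 0.8 and 42.5% of 0.4 were recovered. Of the simulated calls, 3.51% were false. In the measured data 43.4% of genes were called in that comparison, so these shares do not carry over to the reported calls.

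Sequences were matched with Python 3.11.15 and Biopython 1.88 to GENCODE v44 on GRCh37 and to RefSeq tables on GRCh38.p14, in which 4 of the 5 members had a promoter. Named genes are the members, up to 4 tested genes per list with the largest change against parent, IRF1, SMAD4, SOX9, KLF5, PTPN6 and CDH1, the nearest tested neighbours and the 4 nearest patterns per member. The values of 1 listed factor are not reported here. The members and lists were chosen with earlier results of these data known. Alternatives were another pseudocount (0.1), filter, scaling, variance model, sample set, replicate block and fold minimum (1.5), and each library left out.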

Additional observations from a re-analysis of the deposited data

How the results depend on the processing

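The calls of CEACAM5, CEACAM6 and CEACAM19 against parent, and of CEACAM1, CEACAM5 and CEACAM6 against NC, kept their direction in every alternative fit. They stayed past the threshold in each, except that CEACAM19 has no value with a minimum mean of 5 FPKM. The fold minimum was applied only to the counts of called genes and not to the members. CEACAM1 against NC, at 1.22-fold, was under that minimum. For NC against parent, CEACAM1 lost its call without parent replicate 1 (log2 fold change 0.26, limma adjusted p = 0.0543) and without NC replicate 2 (0.22, adjusted p = 0.0521), and its values without 1 library ran from 0.22 to 0.30. Some differences that were not called changed sign, as follows. CEACAM1 against parent became 0.0087 with median-of-ratios rescaling and ran from -0.0285 to 0.0093 when 1 library was left out. For NC against parent, leaving out 1 library gave -0.271 to 0.0646 for CEACAM5 and -0.0091 to 0.154 for CEACAM6. The cause was not tested.

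Counts of called genes moved more. A minimum change of 1.5-fold left 1112 genes against parent, 976 against NC and 298 for NC against parent, and without a filter the last was 2165. Leaving out 1 library gave 3164 to 5135, 2815 to 4639 and 1355 to 2296 calls. Against parent the lowest count came without miR-4711-5p replicate 1, as it did against NC, where miR-4711-5p replicate 2 left 2991. For NC against parent the counts were 1355 and 2154 without either parent replicate and 1591 and 1944 without either NC replicate. With rescaling, the fibroblast and endothelial list had 0 genes called by limma against parent in place of 1 (CDH5). Over all tested genes the same-numbered libraries do not pair, since the correlations of their deviations were 0.061, 0.003 and -0.009. CEACAM5 and CEACAM6, however, were higher in replicate 2 than in replicate 1 of every group. With a replicate block the SE against parent went from 0.11 to 0.08 for CEACAM5 and from 0.08 to 0.04 for CEACAM6. A replicate block gave 4983, 4564 and 2864 calls and changed no member's call. Depth in reads is unknown, which limits what can be said of CEACAM7 and CEACAM19.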

Other observations

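Of 19 other genes of the CEA family, none reached a mean of 1 FPKM. CEACAM4, CEACAM8, CEACAM16, CEACAM18, CEACAM21, PSG2 and PSG10P were listed at 0 in all 6 libraries, and 4 genes exceeded 0.1 FPKM in any library. PSG6, a pregnancy-specific glycoprotein gene, reached 0.195 FPKM in miR-4711-5p library 2, and its relative PSG9 reached 0.111 FPKM in NC library 2. CEACAM20 was listed at 0.104 FPKM in parent library 2 and at 0 elsewhere. PSG1 was above 0 in every library, between 0.0410 and 0.0716 FPKM in the control libraries and at 0.117 and 0.0961 FPKM with miR-4711-5p. At these levels a value may rest on very few reads, and no difference was tested.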
